A study of Mus musculus with 2 samples.

Results

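The 8 genes described here encode the machinery that makes, packs and breaks down acetylcholine in a neuron and the muscarinic receptors that answer it. They are Chat, Slc18a3, Slc5a7, Ache, Chrm1, Chrm2, Chrm3 and Chrm4, chosen by name, and they are 8 of the 28692 genes listed in the matrices of a single-cell study of the mouse habenula. Their levels were read in neurons of the medial habenula (MHb) and the lateral habenula (LHb), to see which neurons carry the transcripts of an acetylcholine source and which carry receptors. Each of the 2 libraries pooled 4 adult male C57BL/6 mice aged 50 to 55 days, and no genotype other than this wild-type strain was given. The foot shock mice were handled for 5 min and placed in the shock chamber for 10 min on each of 7 days, then received 30 shocks of 0.3 mA lasting 1 s in a 60 min session. The control mice were handled in the same way but stayed in their home cage, with no chamber, so the chamber and the shocks cannot be told apart between the libraries. Tissue was taken immediately after the session, or directly from the home cage, and 1 suspension was made from the punches of all 4 mice of a group. Slices of both groups were cut and digested with tetrodotoxin, which blocks sodium channels, and actinomycin, which blocks transcription. There was 1 library per group, so no value below has a replicate check and no test between groups was possible.

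Chat (choline acetyltransferase) joins choline to acetyl-CoA to make acetylcholine. Slc18a3 is the transporter that loads acetylcholine into synaptic vesicles, and Slc5a7 is the high-affinity transporter that brings choline back into cholinergic terminals. These 3 are called the source genes below. Ache (acetylcholinesterase) breaks acetylcholine down outside the cell and is made by cells that receive acetylcholine as well as by those that release it. Chrm1 and Chrm3 encode receptors that couple to Gq proteins and phospholipase C, whereas Chrm2 and Chrm4 encode receptors that couple to Gi and Go proteins. The MHb is known as a cholinergic nucleus that projects to the interpeduncular nucleus, where its neurons release acetylcholine and glutamate.

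In the coordinates of GRCm38, Chat (ENSMUSG00000021919) lies on the minus strand of chromosome 14 from 32408203 to 32465989. Slc18a3 (ENSMUSG00000100241) lies inside Chat on the same strand, from 32462438 to 32464850, with no exon shared between their models. Reads from introns or unspliced transcripts of one could still be given to the other, so how separately the pair was counted is uncertain. Slc5a7 (ENSMUSG00000023945) lies on chromosome 17 from 54273590 to 54299034 and Ache (ENSMUSG00000023328) on chromosome 5 from 137287519 to 137294466. Chrm1 (ENSMUSG00000032773) is on chromosome 19 from 8663789 to 8683587, Chrm2 (ENSMUSG00000045613) on chromosome 6 from 36388084 to 36528414 and Chrm3 (ENSMUSG00000046159) on chromosome 13 from 9875486 to 10360847. Chrm4 (ENSMUSG00000040495) is on chromosome 2 from 91927249 to 91928688.

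Start-site sequence from RefSeq (GRCm38.p6), covering 250 bases before and 50 from each start, was held for 7 of the 8 genes. The windows of the 3 source genes, which moved together across neurons, and of Chrm2, which was highest in LHb-like neurons, where they were low, are shown 5′ to 3′ on the strand of the gene. Capitals mark matches on either strand to the E-box CAGCTG, the GC box GGGCGG or GGACAG, a part of the element bound by the repressor REST. The windows are chr14:32465860-32466159 for Chat, chr14:32464801-32465100 for Slc18a3, chr17:54298985-54299284 for Slc5a7 and chr6:36387834-36388133 for Chrm2.
Chat: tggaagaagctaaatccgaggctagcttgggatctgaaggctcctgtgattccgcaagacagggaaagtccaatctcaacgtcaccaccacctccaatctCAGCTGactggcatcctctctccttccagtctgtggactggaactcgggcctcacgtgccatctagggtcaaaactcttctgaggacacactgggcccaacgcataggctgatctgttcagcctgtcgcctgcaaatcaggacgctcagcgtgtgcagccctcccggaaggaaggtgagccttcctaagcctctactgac
Slc18a3: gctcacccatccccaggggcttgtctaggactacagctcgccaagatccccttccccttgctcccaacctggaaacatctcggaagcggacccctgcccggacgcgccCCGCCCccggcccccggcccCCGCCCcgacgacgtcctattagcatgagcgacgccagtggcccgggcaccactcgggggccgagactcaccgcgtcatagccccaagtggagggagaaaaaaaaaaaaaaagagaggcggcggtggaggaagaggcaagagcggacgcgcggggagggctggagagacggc
Slc5a7: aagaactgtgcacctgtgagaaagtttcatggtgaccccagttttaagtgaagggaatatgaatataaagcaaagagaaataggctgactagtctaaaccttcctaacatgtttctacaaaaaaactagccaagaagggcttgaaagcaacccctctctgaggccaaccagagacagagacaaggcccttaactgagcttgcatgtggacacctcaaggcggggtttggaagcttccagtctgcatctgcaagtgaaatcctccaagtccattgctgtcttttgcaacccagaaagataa
Chrm2: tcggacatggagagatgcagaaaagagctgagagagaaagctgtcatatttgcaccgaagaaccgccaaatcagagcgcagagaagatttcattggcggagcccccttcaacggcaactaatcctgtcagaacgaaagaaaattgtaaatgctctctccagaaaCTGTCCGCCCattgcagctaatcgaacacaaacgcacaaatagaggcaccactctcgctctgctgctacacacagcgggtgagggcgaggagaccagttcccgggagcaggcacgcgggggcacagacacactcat
The windows of the 3 source genes held no motif in common among those searched. The Chat window held 1 CAGCTG, found in 16.3% of the 32851 promoters of the same length, and no other form of the E-box was searched. The Slc18a3 window held 2 GC boxes, a motif in 35.7% of promoters, with 67.0% G and C and 27 CpG pairs. The Slc5a7 window held no match, with 44.7% G and C and 1 CpG pair, and it stood below the median of all promoters at 52.7% G and C. In Chrm2 a GGACAG match, read as CTGTCC and present in 22.2% of promoters, overlapped a GC box. The homeodomain core TAATTA, in 5.29% of promoters, and the cyclic AMP response element TGACGTCA, in 1.79%, were also searched and were in none of the 7 windows. These are letter matches only.

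Values are UMIs (unique molecular identifiers, 1 per captured transcript) per 1000000 UMIs of the cells named, written CPM, with exact 95% intervals in brackets that cover counting error only. The chemistry captured the 3′ end of transcripts, so levels are compared between cells and not between genes. A total of 4760 cells were kept in the foot shock library and 4887 in the control library, with medians of 2690.5 and 2417 UMIs. The foot shock library held 1617 MHb-like and 851 LHb-like neurons, and the control library held 1211 and 965. All 8 markers of each habenula nucleus were found in both neuron classes, with the MHb list summing to 6935 CPM (foot shock) and 6444 CPM (control) in MHb-like neurons and to 2635 CPM (foot shock) and 1967 CPM (control) in LHb-like neurons. The LHb list summed to 1082 CPM (foot shock) and 986 CPM (control) in MHb-like neurons and to 2971 CPM (foot shock) and 2777 CPM (control) in LHb-like neurons. Not every marker ran with its list. Of the 8 MHb markers, 6 were higher in MHb-like neurons in both libraries and Calb2 and Wif1 were higher in LHb-like neurons, and of the 8 LHb markers, 5 were higher in LHb-like neurons in both libraries and Etv1 and Htr4 were higher in MHb-like neurons. Etv1 stood at 682 CPM (foot shock) and 600.2 CPM (control) in MHb-like neurons against 186 CPM (foot shock) and 124 CPM (control) in LHb-like neurons, and Gpr151 was higher in MHb-like neurons in the control library only. Of 6 markers of cholinergic neurons of the basal forebrain, striatum and motor nuclei, MHb-like neurons had 4 at 0 in the foot shock library and 3 in the control library, and the list summed to 1.43 and 1.59 CPM. Only the foot shock library held a cluster of keratin-expressing epithelial cells (327) and an unnamed one (222), and each member had at most 1 UMI in either. Kept cells of the 2 libraries shared 32 barcodes. A background of free RNA was read from barcodes with 10 to 100 UMIs.

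The source genes belonged to the MHb-like neurons. In MHb-like neurons Chat reached 56.6 CPM in the foot shock library and 46.0 CPM in the control library, from 317 and 231 UMIs, whereas LHb-like neurons held 4 and 0 UMIs. Slc18a3 stood at 73.7 CPM (foot shock) and 66.3 CPM (control) in MHb-like neurons, against 1.28 CPM (foot shock) and 1.89 CPM (control) in LHb-like neurons. Slc5a7 stood at 430.0 CPM (foot shock) and 434 CPM (control) in MHb-like neurons and at 15.6 CPM (foot shock) and 9.22 CPM (control) in LHb-like neurons. The Slc5a7 level of LHb-like neurons lay below the free RNA of the same libraries at 66.1 CPM (foot shock) and 54.1 CPM (control), and it is not read here as expression. The MHb-like over LHb-like ratio of Slc5a7 was 27.5 (20.7 to 37.2) in the foot shock library and 47.1 (34.3 to 66.4) in the control library. For Chat it was 44.3 (17.1 to 164) in the foot shock library. In the control library, with 0 UMIs in LHb-like neurons, the lower end of its interval was 52.4, and the ratio with that 0 set to 3 UMIs was 64.9.

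Ache and 2 of the receptors ran the other way. Ache stood at 31.0 and 36.7 CPM in MHb-like neurons and at 109 and 119 CPM in LHb-like neurons in the foot shock and control libraries. Its ratio of MHb-like over LHb-like was 0.284 (foot shock, 0.235 to 0.342) and 0.307 (control, 0.258 to 0.364). Chrm2 stood at 1.96 CPM (foot shock) and 1.39 CPM (control) in MHb-like neurons against 107 CPM (foot shock) and 129 CPM (control) in LHb-like neurons, ratios of 0.0183 (foot shock, 0.00904 to 0.0332) and 0.0108 (control, 0.00433 to 0.0225). Chrm3 stood at 6.07 CPM (foot shock) and 4.98 CPM (control) in MHb-like neurons against 24.9 CPM (foot shock) and 42.1 CPM (control) in LHb-like neurons. Chrm1 was the receptor of the MHb-like neurons, at 8.21 CPM (foot shock) and 11.95 CPM (control) there against 1.28 CPM (foot shock) and 0.473 CPM (control) in LHb-like neurons, ratios of 6.42 (foot shock, 2.35 to 24.6) and 25.3 (control, 6.70 to 214). Chrm4 had 0 UMIs in either class.

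Of the 7 members with at least 20 UMIs over both classes in each library, 4 were at least 2 times higher in MHb-like neurons in both libraries, a fold that 4.81% of all 11618 such genes passed. The other 3 (Ache, Chrm2 and Chrm3) were at least 2 times higher in LHb-like neurons, which 9.31% of all genes passed. Chrm3 did not pass with at least 2000 UMIs required per cell, where its log2 ratio was 0.03 in the foot shock library. The median log2 ratio over the 7 members, with 0.5 UMIs added to each sum, was 2.53 in the foot shock library and 4.35 in the control library, against -0.13 and -0.15 over all genes tested. With 4 members higher in 1 class and 3 in the other, this median is the value of Chrm1 and no shared shift. Chrm1 had 4 (foot shock) and 2 (control) UMIs in LHb-like neurons. Members were drawn for known roles in these nuclei, so the shares are a description of them.

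**Figure D1:**
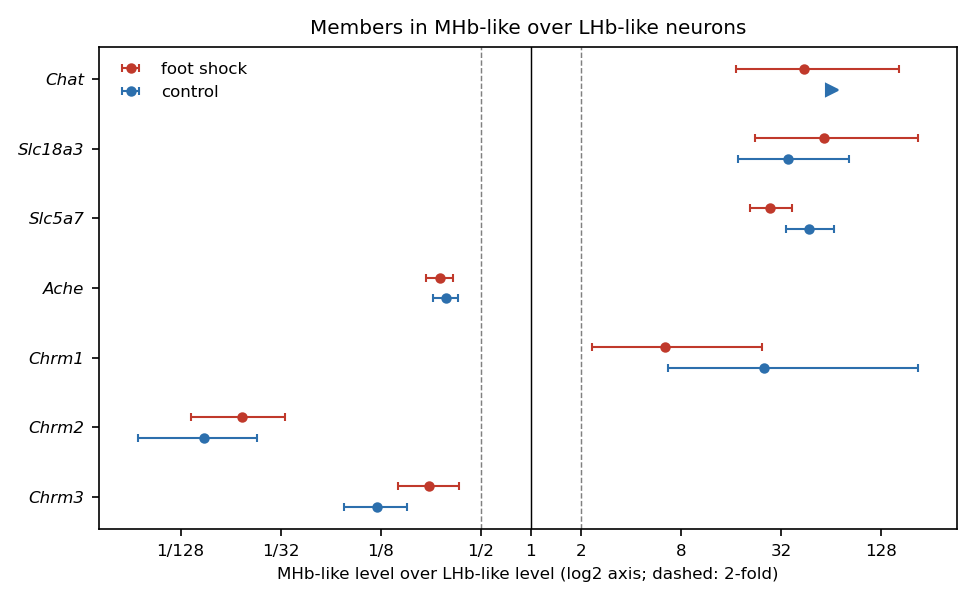
Level in MHb-like neurons over level in LHb-like neurons for 7 members (log2 axis), with the foot shock library above the control library for each gene, points with exact 95% intervals, and a triangle for Chat in the control library at its ratio with the 0 of LHb-like neurons set to 3 UMIs. The source genes and Chrm1 lie right of the 2-fold line and Ache, Chrm2 and Chrm3 left of it in both libraries.

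MHb-like neurons fell into 9 subclusters, numbered M1 to M9 and called by their leading genes, and the source genes were far from even over them. The member genes and the cholinergic pathway list were kept out of the features that made the subclusters. Slc5a7 was highest, among the 8 subclusters with at least 50 cells in each library, in M4 (Fgf1/Syndig1l), at 957 CPM (899.8 to 1016) in the foot shock library and 1074 CPM (1005 to 1147) in the control library. M8 (Clasp2/Pim1) followed at 874 CPM (foot shock) and 812 CPM (control), M5 (Tmod1/Sox2) at 506 CPM (foot shock) and 625 CPM (control) and M7 (Syt2/Car2, with Ebf3) at 539 CPM (foot shock) and 572 CPM (control). Of the 8 larger subclusters, these 4 are the ones with Synpr, a synaptic vesicle protein, at 1206 CPM or more. The smaller M9 was above this level as well, at 4236 CPM (foot shock) and 3623 CPM (control).

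A middle group came next. Slc5a7 stood at 211 CPM (foot shock) and 254 CPM (control) in M2 (Calcrl/Syt15), 224 CPM (foot shock) and 154 CPM (control) in M6 (Pam/Actb) and 135 CPM (foot shock) and 110 CPM (control) in M1 (Spon1/Nap1l5). M3, led by Cck and Adcyap1 and high in the neuropeptide gene Tac1, held 38.4 CPM (25.3 to 55.8) in the foot shock library and 37.5 CPM (23.7 to 56.2) in the control library. In the foot shock library this was below free RNA, and in the control library the interval covered it. The level of M4 was 24.9 times (foot shock, 17.0 to 38.0) and 28.7 times (control, 19.0 to 45.5) that of M3. Between neighbours in the order, the intervals of M5 and M7 overlapped in both libraries, and those of M4 and M8 were apart only in the control library. M6 and M8 shared the leading genes Clasp2, Pam and Hsf2 with the LHb-like subcluster L5, so these genes do not mark a subtype of 1 nucleus. Median depth differed between libraries, at 2322 UMIs (foot shock) and 4751 UMIs (control) in M8 and 1775.5 (foot shock) and 3525 (control) in M6.

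Chat and Slc18a3 gave the same picture with fewer UMIs. Chat stood at 104 CPM (foot shock) and 99.2 CPM (control) in M4, 78.7 CPM (foot shock) and 95.0 CPM (control) in M7 and 51.8 CPM (foot shock) and 59.3 CPM (control) in M5. In M8 it stood at 128 CPM (86.3 to 183) in the foot shock library and 60.2 CPM (32.9 to 101) in the control library, from 30 and 14 UMIs. M1 held 27.9 and 19.1 CPM of Chat, and M3 held 1 UMI in the foot shock library and 0 in the control library. Slc18a3 stood at 169 CPM (foot shock) and 122 CPM (control) in M4, at 16.3 CPM (foot shock) and 25.8 CPM (control) in M1, and likewise at 1 UMI (foot shock) and 0 UMIs (control) in M3. Neither gene was detectable above free RNA in M3 at this depth.

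The smallest subcluster, M9, held 27 foot shock and 33 control cells and was led by Slc18a3 itself, with Synpr and Elovl4. Its median depth was 1319 UMIs, against 5051.5 in M4. Slc5a7 stood there at 1750 CPM (foot shock, 1379 to 2190) and 1688 CPM (control, 1327 to 2115), and Slc18a3 at 345 CPM (foot shock, 193 to 570) and 338 CPM (control, 189 to 557), higher values than in M4 in both libraries. Chat rested on 6 UMIs (foot shock) and 3 UMIs (control) there. Whether depth has a part in these levels was not tested.

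**Figure D2:**
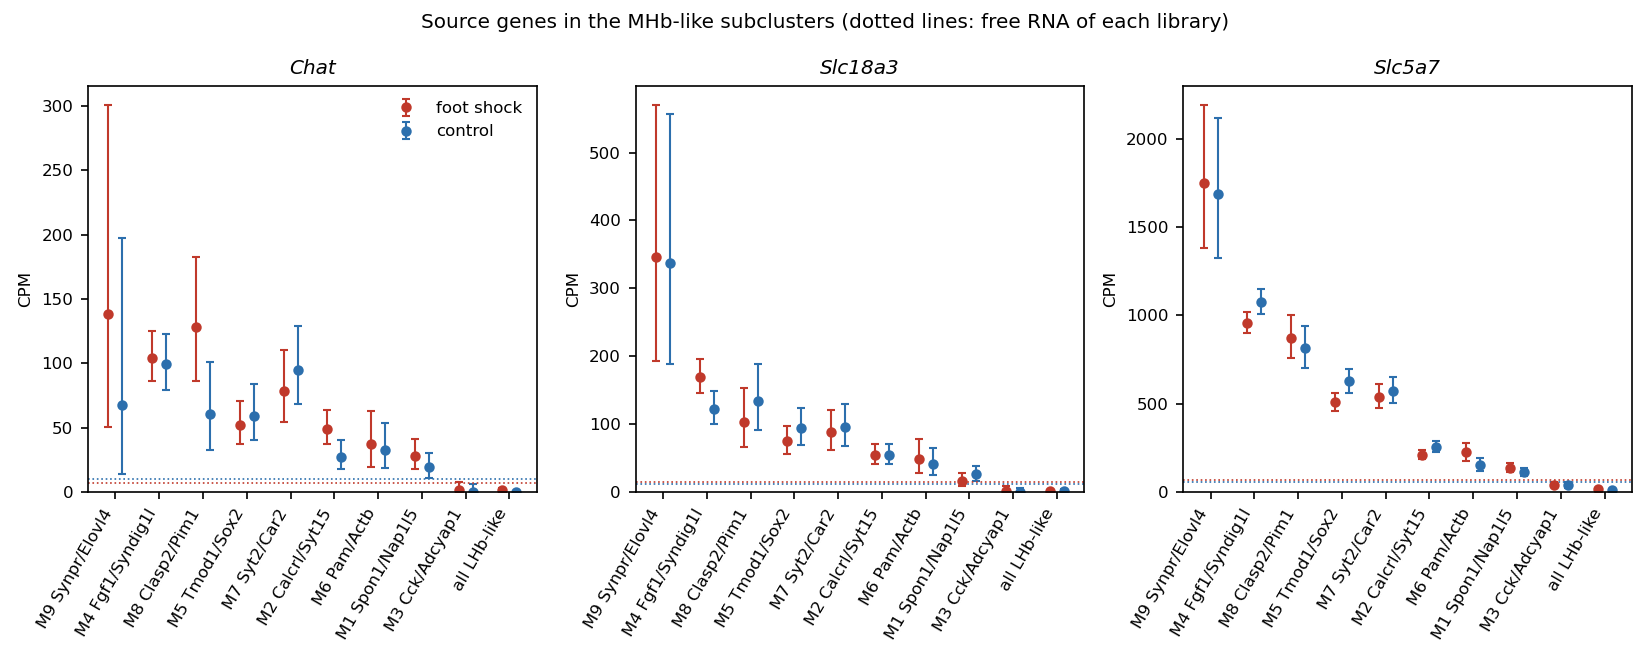
Levels of Chat, Slc18a3 and Slc5a7 in CPM (linear axes, points with exact 95% Poisson intervals) in the 9 MHb-like subclusters and in all LHb-like neurons, with the foot shock library left of the control library and dotted lines at the free RNA level. All 3 fall along nearly the same order of subclusters, down to the Cck/Adcyap1 subcluster at or under free RNA.

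MHb-like neurons were also sorted by a UMI of 1 transcript, Synpr, Tac1 or Cck. These 3 genes were not kept out of the clustering features, so the sorting is no separate support for the subclusters. In the foot shock library, the 825 MHb-like neurons with a Synpr UMI held Slc5a7 at 677 CPM, against 111 CPM in the 792 without, a ratio of 6.12 (5.39 to 6.97). In the control library the values were 725 CPM in 580 cells with Synpr and 115 CPM in 631 without, a ratio of 6.33 (5.57 to 7.21). For Chat the ratios were 3.94 (foot shock, 2.91 to 5.41) and 4.35 (control, 3.08 to 6.28). Cells with a Tac1 UMI went the other way: Chat stood at 2.64 CPM in 230 such cells of the foot shock library and at 65.0 CPM in the 1387 without, a ratio of 0.0406 (0.00490 to 0.148), and the control ratio was 0.0629 (0.0129 to 0.186). Cells with a Cck UMI held Slc5a7 at 0.163 times (0.125 to 0.209) the level of the others in the foot shock library and 0.170 times (0.132 to 0.217) in the control library. With every cell thinned to 1000 UMIs, the Synpr ratio of Chat was 2.49 (1.65 to 3.81) in the foot shock library and 1.76 (0.923 to 3.36) in the control library.

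Within MHb-like neurons the source genes were also found in the same cells. Slc5a7 was detected in 80.0% (74.5 to 84.8) of the 250 foot shock cells with a Chat UMI, against 48.6% of the 1367 without, and in 80.0% (73.5 to 85.5) of the 185 control cells with one, against 51.9% of the 1026 without. Cells with a Chat UMI were deeper, with medians of 4295.5 UMIs (foot shock) and 4837 UMIs (control), against 3369 (foot shock) and 4093.5 (control) in the others. Slc18a3 was detected in 34.4% of Chat cells against 16.1% of the others in the foot shock library, and in 32.4% against 18.6% in the control library. Correlations of log2(CPM + 10) were taken over the 14 subclusters with at least 50 cells in each library, which share libraries and depth. These are 8 MHb-like and 6 LHb-like subclusters, so the values include the difference between the classes. The correlation of Chat with Slc18a3 was 0.98 in both libraries and that of Chat with Slc5a7 was 0.96 in both.

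Ache, the enzyme of breakdown, was spread over the LHb-like subclusters and was above free RNA in all 10 of them in the control library and in all but L7 in the foot shock library. Its level in L10 (Cxcl13/Ret) was 249 CPM (189 to 321) in the foot shock library and 183 CPM (136 to 241) in the control library, from 53 and 45 cells. It stood at 142 CPM (foot shock) and 188 CPM (control) in L8 (Fam19a1), 112 CPM (foot shock) and 122 CPM (control) in L1 (Megf11/Necab1) and 75.8 CPM (foot shock) and 82.6 CPM (control) in L3 (Peg10/Wif1), and neighbours in this order overlapped in their intervals. The highest of the 6 larger LHb-like subclusters was 1.88 times (1.06 to 3.28) the lowest in the foot shock library and 2.27 times (1.45 to 3.56) in the control library. L10 is not among these 6. In the foot shock library it stood above them all, at 249 CPM against 142 CPM in L8. In MHb-like subclusters Ache ranged from 16.3 to 48.0 CPM in the foot shock library and from 17.2 to 57.0 CPM in the control library, and of the 8 larger ones only M4 was above the free RNA level (25.1 and 31.3 CPM) in both libraries. Neurons outside the habenula classes held Ache as well, at 80.1 CPM (foot shock) and 112 CPM (control) in thalamus-like neurons and at 112 CPM (foot shock) and 140 CPM (control) in the other neurons, whose Pou4f1 was under the limit for LHb-like neurons. Over the 14 larger subclusters of both classes, the correlation of Ache with Chat was -0.71 in the foot shock library and -0.74 in the control library. These values include the difference between the classes. Among the 8 larger MHb-like subclusters, M4 was first for both genes by the mean of the libraries, whereas M3 was second for Ache and last for Chat.

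Chrm1, a Gq-coupled receptor gene, was highest in M7 and M4, the only larger subclusters above free RNA in both libraries. It stood at 37.0 CPM (foot shock, 21.2 to 60.1) and 44.0 CPM (control, 26.5 to 68.7) in M7, at 16.3 CPM (foot shock, 9.66 to 25.7) and 38.2 CPM (control, 26.2 to 54.0) in M4, and at 25.6 CPM (foot shock) and 4.30 CPM (control) in M8, the M8 values from 6 UMIs (foot shock) and 1 UMI (control). M5 has Slc5a7 at the level of M7, yet Chrm1 had 0 UMIs there in both libraries, as it did in M1. MHb-like neurons with a Synpr UMI held Chrm1 at 13.6 CPM (foot shock) and 22.1 CPM (control), against 1.23 CPM (foot shock) and 0.836 CPM (control) in those without, and the last 2 values rest on 3 UMIs (foot shock) and 2 UMIs (control). Cells with UMIs of at least 2 source genes held Chrm1 at 19.4 CPM (foot shock) and 19.8 CPM (control), against 3.54 CPM (foot shock) and 8.56 CPM (control) in the other MHb-like neurons, ratios of 5.48 (foot shock, 2.84 to 11.1) and 2.31 (control, 1.35 to 3.97). Source cells were also deeper, with medians of 4320.5 UMIs (foot shock) and 5016.5 UMIs (control), against 3282 (foot shock) and 3985 (control) in the others. Neither the part of depth nor that of the subcluster mix was tested.

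Chrm2, a Gi-coupled receptor gene, marked part of the LHb-like neurons. It was highest in L2 (Sv2c/Nfib), at 295 CPM (258 to 336) in the foot shock library and 386 CPM (343 to 432) in the control library, where 70.5% and 76.7% of cells held a UMI. L7 (Vangl1/Cdh8) followed at 245 CPM (foot shock, 153 to 371) and 321 CPM (control, 256 to 399), from only 36 cells (foot shock) and 81 cells (control). Then came L10 at 75.8 CPM (foot shock) and 158 CPM (control) and L9 (Ntng1/Lmo7) at 106 CPM (foot shock) and 95.2 CPM (control). In L1, L3, L4 (Ddc/Fam19a2), L5 (Clasp2/Pam) and L8 it lay between 17.8 and 55.1 CPM in the foot shock library and between 27.5 and 68.7 CPM in the control library. L6, led by Sst and Mctp1, held 1 UMI (foot shock) and 0 UMIs (control) in 91 cells (foot shock) and 49 cells (control). Chrm2 was detected in 0.618% of MHb-like cells of the foot shock library and 0.495% of those of the control library, near the 0.583% and 0.184% of oligodendrocyte-like cells, which are taken here as a class that should lack it and had medians of 1857 and 2069 UMIs.

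Chrm3, a Gq-coupled receptor gene, had another distribution within the LHb-like class. It was highest in L1, at 81.5 CPM (foot shock, 56.8 to 113) and 104 CPM (control, 85.8 to 124), where Chrm2 was 18.6 CPM (foot shock) and 27.5 CPM (control). L8 held 35.6 CPM (foot shock) and 95.9 CPM (control) and L4 held 56.8 CPM (foot shock) and 30.6 CPM (control). In the Chrm2-rich L2 it stood at 12.8 CPM (foot shock) and 10.2 CPM (control), and in L3, L6 and L10 it had at most 1 UMI per library. Among LHb-like cells, a Chrm3 UMI was found in 6.09% of the 197 foot shock cells with Chrm2 and 7.80% of the others, and in 12.9% of the 255 control cells with Chrm2 and 15.1% of the others, with intervals that overlap. L1 and L8 had the lowest Pou4f1 of the LHb-like subclusters, 127 and 152 CPM over both libraries, near the 100 CPM that a subcluster needed to count as LHb-like, a limit set after values were seen, and the nearest subcluster left out had 53.8 CPM. With at least 2000 UMIs required per cell, the clusters formed anew left 0 of the 79 foot shock and 0 of the 173 control cells of L1 in the LHb-like class. Of L4, whose Pou4f1 was 281 CPM, they left 1 of 61 foot shock and 4 of 78 control cells in the class, so whether L1 and L4 count as LHb-like depends on that minimum. The log2 ratio of Chrm3 in MHb-like over LHb-like neurons was 0.03 in the foot shock library and -1.47 in the control library, against -2.04 and -3.08 with at least 1000 UMIs. L1 held 35 of the 78 Chrm3 UMIs of the LHb-like class in the foot shock library and 117 of the 178 in the control library, and L4 held 17 (foot shock) and 14 (control). Among MHb-like neurons, M7 held 30.1 CPM (16.0 to 51.4) of Chrm3 in the foot shock library and 6.95 CPM (1.43 to 20.3) in the control library, and the other larger MHb-like subclusters held at most 8 UMIs in either library. Outside the habenula classes, Chrm3 stood at 33.0 CPM (foot shock) and 24.9 CPM (control) in the other neurons. In thalamus-like neurons it stood at 15.2 CPM (foot shock) and 26.0 CPM (control), from 4 and 20 UMIs.

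**Figure D3:**
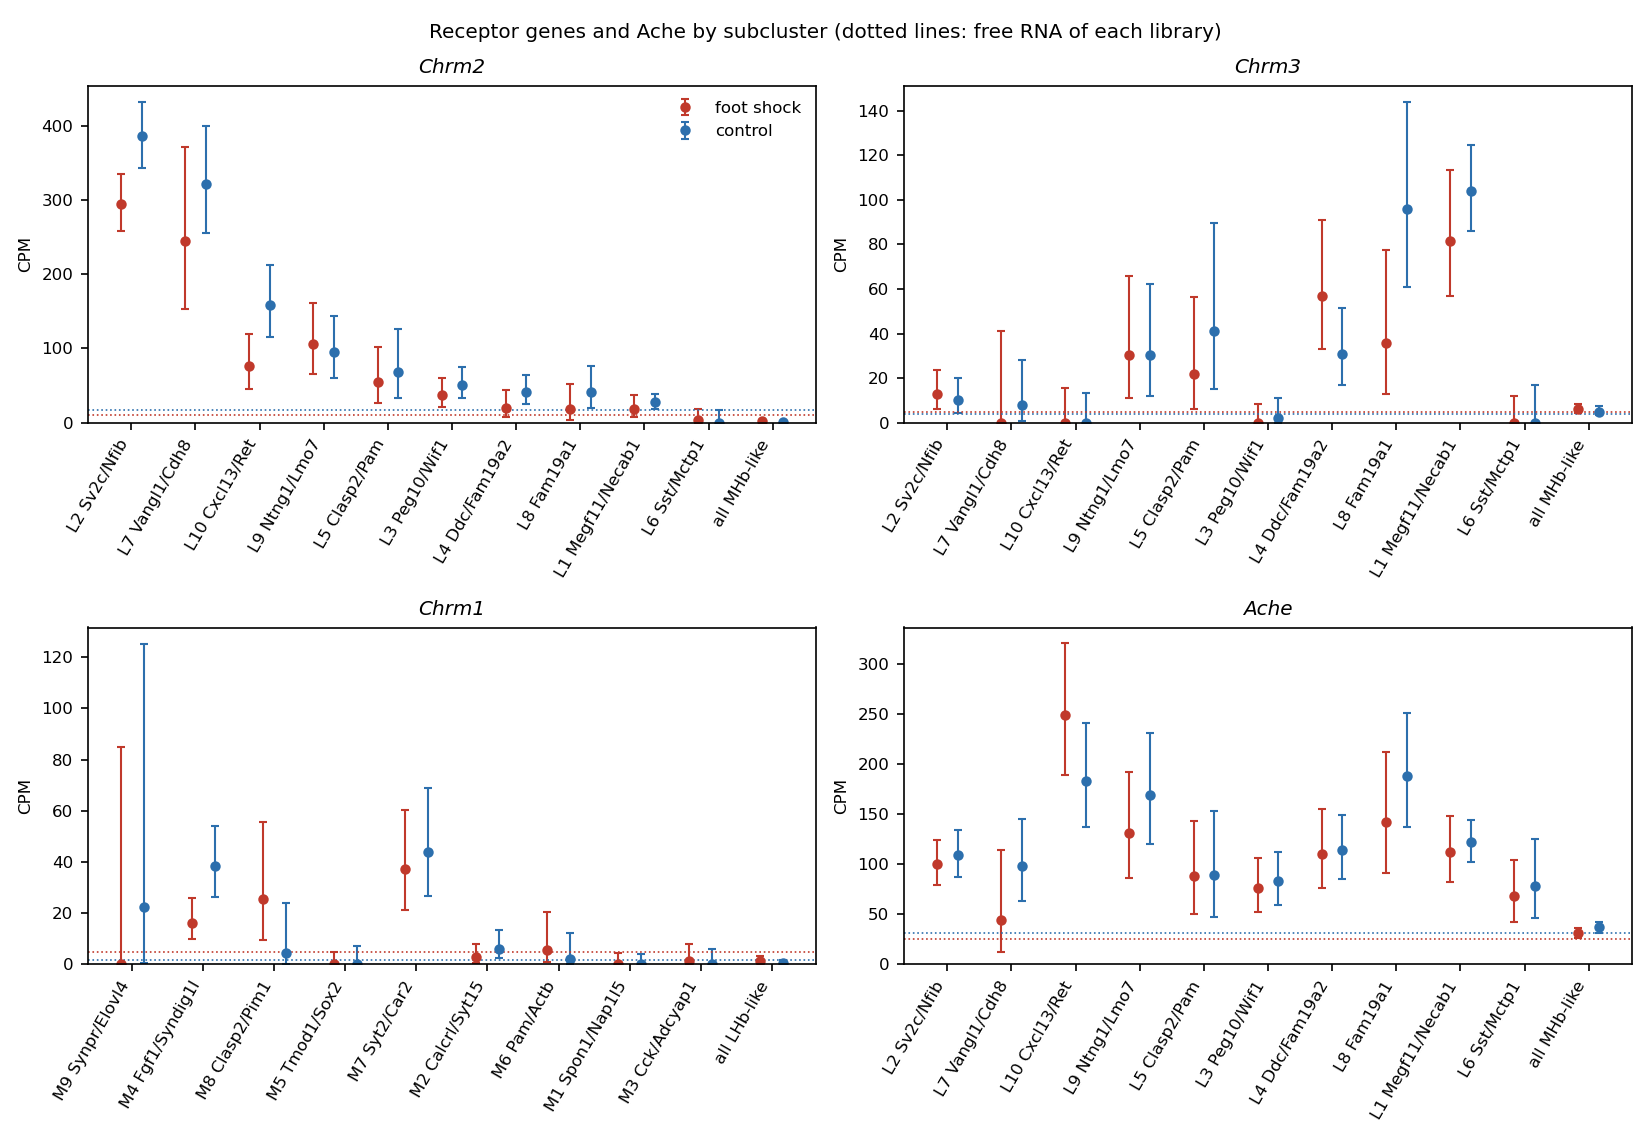
Levels in CPM (linear axes, points with exact 95% Poisson intervals) of Chrm2, Chrm3 and Ache in the 10 LHb-like subclusters and in all MHb-like neurons, and of Chrm1 in the 9 MHb-like subclusters and in all LHb-like neurons, with the foot shock library left of the control library and dotted lines at free RNA. Chrm2 peaks in the Sv2c/Nfib and Vangl1/Cdh8 subclusters, Chrm3 in the Megf11/Necab1 subcluster, and Chrm1 in the Syt2/Car2 and Fgf1/Syndig1l subclusters.

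Chrm4 was listed in both matrices and had 0 UMIs over all 737280 barcodes of each library, cells and free RNA together. In the MHb-like neurons this allows a level of up to 0.535 CPM in the foot shock library and 0.598 CPM in the control library. The Chrm4 model of GENCODE vM21 is 1440 bases long with 0 bases of 3′ untranslated region, and the RefSeq gene runs 1147 bases further at the 3′ end. The 3′ ends of the 7 other members' models lie within 224 bases of those of RefSeq. The gene model behind the counts is not given, so its part in the 0 was not tested, and the 0 is not read as absence of the receptor. Chrm5, the last muscarinic receptor gene, likewise has 0 bases of 3′ untranslated region in GENCODE vM21 and had 4 UMIs (foot shock) and 11 UMIs (control) over all barcodes.

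Source transcripts were thus found mainly in MHb-like neurons and receptor transcripts more often in LHb-like neurons. Cells with UMIs of at least 2 source genes made up 24.4% (394 cells) of MHb-like neurons in the foot shock library and 25.4% (308 cells) in the control library, and 0.118% and 0.207% of LHb-like neurons. Cells with a UMI of any of Chrm1 to Chrm4 made up 4.82% (foot shock) and 5.78% (control) of MHb-like neurons and 29.3% (foot shock) and 37.6% (control) of LHb-like neurons. Neurons outside the habenula classes bore receptors as well. The shares were 16.1% (foot shock) and 20.1% (control) of the other neurons and 10.5% (foot shock) and 17.4% (control) of thalamus-like neurons. In oligodendrocyte-like cells the shares were 0 of 858 (foot shock) and 0 of 1087 (control) for source cells, which allows up to 0.350% (foot shock) and 0.276% (control), and 0.816% (foot shock) and 0.552% (control) for receptor-bearing cells. Thinned to 1000 UMIs per cell, with none of these cells left out, source cells were 5.56% (foot shock) and 4.84% (control) of MHb-like neurons, and receptor-bearing cells were 11.7% (foot shock) and 14.5% (control) of LHb-like neurons.

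Within the MHb-like neurons both kinds of transcript met in part of the receptor-bearing cells, and most of these cells were in M4 and M7. In all, 37 foot shock and 27 control MHb-like cells (2.29% and 2.23%) had UMIs of at least 2 source genes and of a receptor gene. They were 37 of the 78 receptor-bearing MHb-like cells in the foot shock library and 27 of the 70 in the control library. A receptor UMI was found in 9.39% (foot shock) and 8.77% (control) of source cells, against 3.35% (foot shock) and 4.76% (control) of the other MHb-like neurons, which were shallower as given above. Within M4 the shares were 11.4% against 10.4% (foot shock) and 14.4% against 17.3% (control). Within M7 they were 28.9% against 18.6% (foot shock) and 16.7% against 25.5% (control). The part of the subcluster mix in the difference over the class was not tested. Of the cells with both kinds of transcript, M4 held 17 and M7 held 13 in the foot shock library, and M4 held 15 and M7 held 7 in the control library. In M4, 65.9% (foot shock) and 66.7% (control) of cells were source cells by this rule and 11.1% (foot shock) and 15.4% (control) were receptor-bearing, and in M7 the shares were 39.1% (foot shock) and 43.3% (control) for source cells and 22.6% (foot shock) and 21.6% (control) for receptor-bearing cells. M3 was low in both, with 0.439% (foot shock) and 0% (control) source cells and 0.877% (foot shock) and 4.91% (control) receptor-bearing cells. L6 was low in both as well, with 0 source cells and 1 (foot shock) and 0 (control) receptor-bearing cells.

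**Figure D4:**
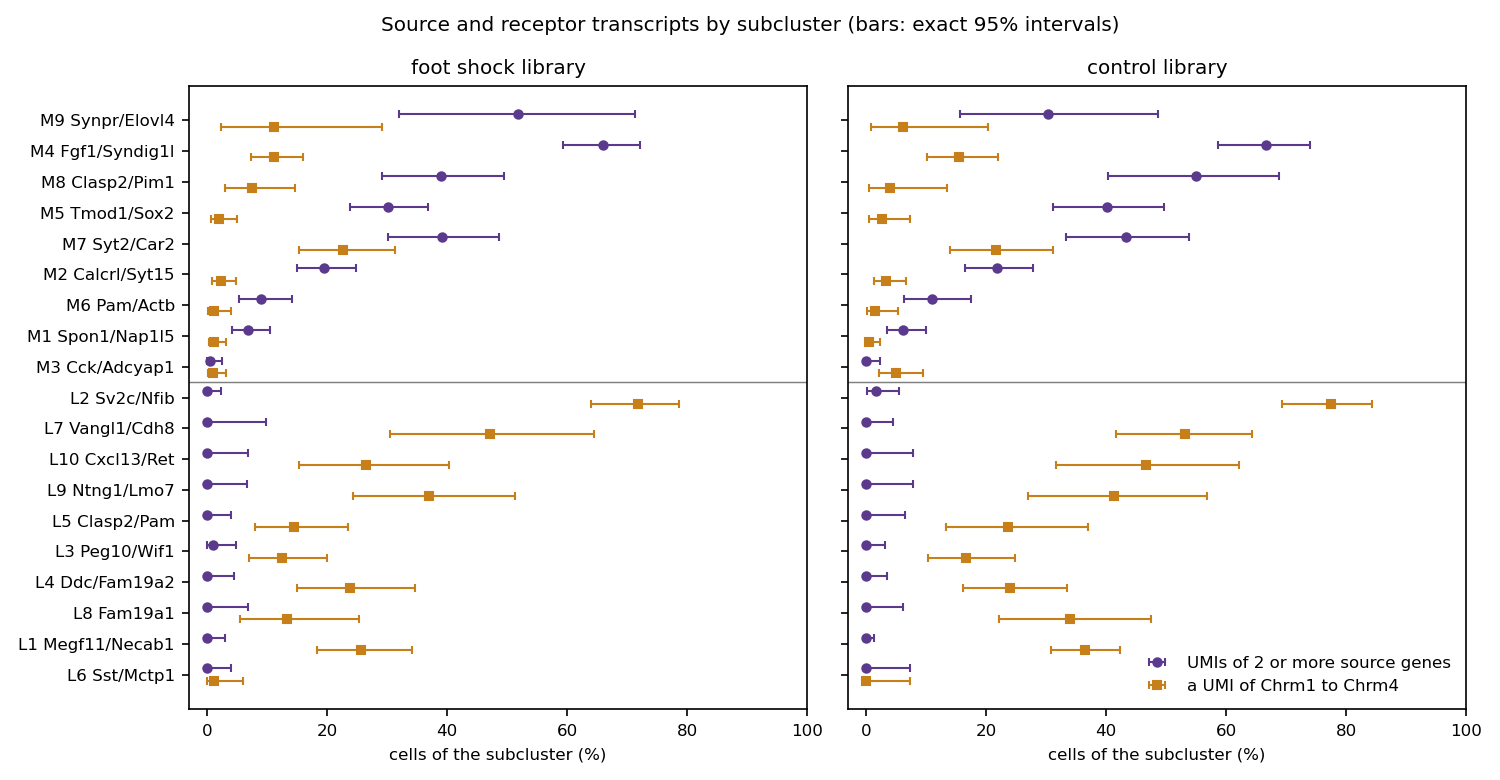
Share of cells (%) with UMIs of at least 2 source genes (circles) and with a UMI of any of Chrm1 to Chrm4 (squares) in each habenula subcluster, with exact 95% Clopper-Pearson intervals, for the foot shock library on the left and the control library on the right. Squares lie right of circles in the LHb-like subclusters, with both near 0 in L6, and circles lie right of squares in the MHb-like subclusters except M3.

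Of 53 other genes of the cholinergic pathway listed in the files, 40 had enough UMIs in both libraries. Of these, 3 were at least 2 times higher in MHb-like neurons and 11 at least 2 times higher in LHb-like neurons, against 4.81% and 9.31% of all genes. The 3 were Slc17a7, a vesicular glutamate transporter, at 559 CPM (foot shock) and 546 CPM (control) in MHb-like neurons and 15.3 CPM (foot shock) and 12.1 CPM (control) in LHb-like neurons, Slc25a1, the mitochondrial citrate carrier that supplies carbon for acetyl-CoA, at a ratio of 2.61 (foot shock) and 3.12 (control), and Prima1, the membrane anchor of acetylcholinesterase in brain, at 3.45 (foot shock, 1.86 to 6.97) and 3.65 (control, 2.06 to 6.90). Ache itself was lower in MHb-like neurons.

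Among the 11 higher in LHb-like neurons, 6 encode G proteins and effectors of muscarinic receptors, out of 14 such genes measured, none of which was 2 times higher in MHb-like neurons. Gnaq, the Gq alpha subunit, stood at 54.2 CPM (foot shock) and 56.4 CPM (control) in MHb-like neurons against 181 CPM (foot shock) and 180 CPM (control) in LHb-like neurons. Kcnj3, a G protein-gated potassium channel subunit, stood at 2.50 CPM (foot shock) and 2.59 CPM (control) against 36.1 CPM (foot shock) and 48.2 CPM (control), and Kcnq3, a subunit of the M-current potassium channel that muscarinic receptors close, at 0.892 CPM (foot shock) and 0.797 CPM (control) against 26.2 CPM (foot shock) and 44.7 CPM (control). Plcb1, Gnai1 and Kcnq5 were the other 3 of the group. The rest of the 11 were Slc44a5, Slc17a6, Slc17a8, Rgs7 and Bmp2. Slc17a6, another vesicular glutamate transporter, was found in both classes, at 252 CPM (foot shock) and 228 CPM (control) in MHb-like neurons and 517 CPM (foot shock) and 486 CPM (control) in LHb-like neurons. The median log2 ratio over the 40 genes was -0.31 in the foot shock library and -0.40 in the control library, against -0.13 and -0.15 over all genes. Bche, the other cholinesterase, and Slc10a4, a transporter-like protein of cholinergic vesicles, had at most 4 UMIs in either neuron class of either library.

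Between foot shock and control, the source genes of MHb-like neurons differed little. The ratio of the foot shock over the control library was 0.990 (0.934 to 1.05) for Slc5a7, 1.11 (0.959 to 1.29) for Slc18a3 and 1.23 (1.03 to 1.46) for Chat. Ache stood at 0.847 (0.684 to 1.05), Chrm1 at 0.687 (0.457 to 1.03) and Chrm3 at 1.22 (0.706 to 2.13). None of the 6 members measured was 1.5 times higher or lower, whereas 3.01% of 11757 genes were higher by that fold and 4.58% were lower. These intervals compare 2 libraries of pooled mice and carry no spread between animals. Over the 45 pairs of a member and a larger subcluster with at least 20 UMIs in all, 5 were past 1.5-fold with an interval, unadjusted for their number, that did not include 1, of which 2 were higher and 3 lower in the foot shock library. Over all genes, 5% of the 93754 such pairs in the same subclusters passed this rule, 2.04% higher and 2.96% lower. In MHb-like subclusters the members' pairs were Chat in M8 (2.13, 1.09 to 4.34) and M2 (1.79, 1.11 to 2.95), Ache in M3 (0.524, 0.290 to 0.925) and Chrm1 in M4. Chrm1 in M4 stood at 16.3 CPM in the foot shock library and 38.2 CPM in the control library, a ratio of 0.426 (0.225 to 0.782).

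In LHb-like neurons 2 of the 4 members measured passed 1.5-fold, 1 in each direction, against 3.38% of 11643 genes higher and 5.77% lower. Chrm3 stood at 24.9 CPM in the foot shock library and 42.1 CPM in the control library, a ratio of 0.592 (0.448 to 0.777). The Chrm3-rich subcluster L1 made up 14.7% of LHb-like cells in the foot shock library and 29.3% in the control library, and with subclusters reweighted to equal shares the ratio of Chrm3 was -0.24 on the log2 scale, against -0.76 without reweighting. Within L1 the ratio was 0.785 (0.522 to 1.15), and in L8 it was 0.371 (0.124 to 0.938), from 6 UMIs (foot shock) and 23 UMIs (control). Slc5a7 stood at 15.6 CPM (foot shock) and 9.22 CPM (control), a ratio of 1.70 (1.09 to 2.66), with both levels under the free RNA of their library, and the log2 ratio was -0.07 with classes set by markers in each cell, against 0.76. In oligodendrocyte-like cells, whose levels were also under free RNA, the ratio of Slc5a7 was 2.56 (1.13 to 6.17). Chrm2 stood at 107 CPM (foot shock) and 129 CPM (control), a ratio of 0.833 (0.725 to 0.956), and lay under 1 in each of the 5 larger subclusters where it was measured, from 0.483 in L4 to 0.802 in L5, with an interval that did not include 1 in L2 alone (0.765, 0.641 to 0.911). Ache stood at 0.915 (0.795 to 1.05).

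Few genes of the pathway list passed 1.5-fold between libraries, in shares near those of all genes. In MHb-like neurons 0 of 36 measured genes were 1.5 times higher and 2 (Slc44a2, a choline transporter-like gene, and Grk5, a receptor kinase) were lower, against 3.01% and 4.58% of all genes. In LHb-like neurons 1 of 40 was higher (Slc17a8, 1.58, 0.986 to 2.53) and 2 were lower, Kcnj6 at 0.552 (0.311 to 0.945) and Kcnq3 at 0.586 (0.447 to 0.764), against 3.38% and 5.77% of all genes.

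**Figure D5:**
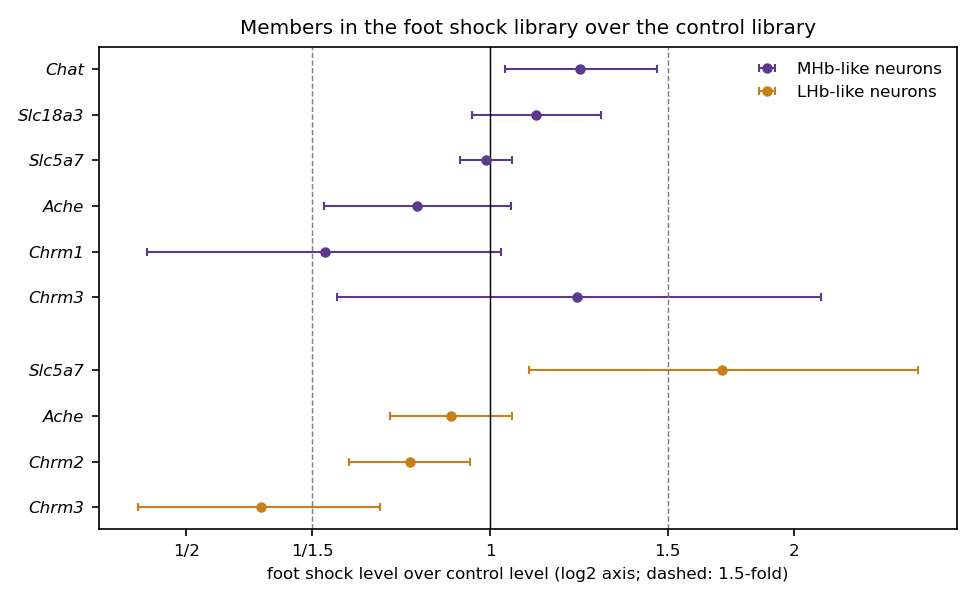
Level in the foot shock library over level in the control library (log2 axis, dashed lines at 1.5-fold) for the members with at least 20 UMIs, in MHb-like neurons above and LHb-like neurons below, with exact 95% intervals for counting error. In MHb-like neurons all 6 lie between the dashed lines, and in LHb-like neurons Slc5a7 lies to the right of them and Chrm3 to the left.

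Outside neurons, Slc5a7 was found in part of the oligodendrocyte lineage. Committed oligodendrocyte precursor-like cells held 179 and 158 CPM in the foot shock and control libraries, from 34 and 46 UMIs in 67 and 92 cells, above free RNA in both. Oligodendrocyte precursor-like cells held 136 CPM from 25 UMIs in the foot shock library and 50.7 CPM from 17 UMIs in the control library, where free RNA stood at 54.1 CPM. Mature oligodendrocyte-like cells held 10.7 CPM (foot shock) and 4.18 CPM (control), under free RNA in both libraries. Slc5a7 also reached 135 CPM in endothelial-like and 143 CPM in microglia-like cells of the foot shock library, from 17 and 18 UMIs, against 22.8 and 28.1 CPM from 4 and 5 UMIs in the control library. Chat had 1 UMI (foot shock) and 0 UMIs (control) in the committed precursor-like cells, and Slc18a3 had 4 (foot shock) and 0 (control). In oligodendrocyte precursor-like cells Chat had 5 UMIs (foot shock) and 1 UMI (control), and Slc18a3 had 6 (foot shock) and 2 (control). Endothelial-like cells held 4 (foot shock) and 0 (control) Chat UMIs. Pou4f1 stood at 94.4 CPM in the oligodendrocyte precursor-like cluster and 106 CPM in the endothelial-like cluster. Whether RNA of MHb neurons has a part in these Slc5a7 levels was not tested. Chrm1 stood at 10.9 CPM from 2 UMIs in the foot shock library and at 41.8 CPM from 14 UMIs in the control library in the oligodendrocyte precursor-like cells.

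The genes nearest in pattern to each member over the 14 subclusters of both classes are given as a description, with the mean correlation of the 2 libraries. Plch2, a phospholipase C gene, and Prkar2a, a regulatory subunit of protein kinase A, were among the 5 nearest to all 3 source genes, at 0.98 for Plch2 with Chat, 0.99 with Slc18a3 and 0.98 with Slc5a7. Coro2b was nearest to Slc5a7, at 0.98. The gene nearest to Chat was Gm2990, at 0.98, which overlaps Chat on the opposite strand with no exon overlap. Chrm2 was nearest to Htr2c, a serotonin receptor gene that is also one of the LHb markers, at 0.93, followed by Adgrl2 at 0.93. Its list also held 9330158H04Rik, at 0.89, a long noncoding RNA gene on the opposite strand whose exons overlap Chrm2. Whether the counting used strand is not stated in the sources used here, so reads of these pairs may not have been told apart. Chrm3 was nearest to Ube3a, at 0.93, Ache to Elavl2, at 0.96, and Chrm1 to Rbp7, at 0.87.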

How the data were processed

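Habenula punches were profiled by droplet single-cell RNA sequencing (10x 3′ chemistry) in 1 foot shock and 1 control library. The authors deposited unfiltered UMI counts per gene and barcode, made with Cell Ranger 2 on mm10 per the submitters' processing notes. The annotation release and the use of strand are not given in the sources used here. Totals were 22189951 UMIs in the foot shock library and 23095501 in the control library over 737280 barcodes each.

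Barcodes with at least 1000 UMIs, 500 to 6000 genes and at most 20% mitochondrial UMIs were kept, and Scrublet doublets (80 and 242 cells) were left out. Cells of both libraries were clustered together (scanpy 1.11.5, 2000 variable genes, 30 components, Leiden resolution 1) without the members and the pathway list as features, named from listed markers, and clustered again within MHb-like and LHb-like neurons. Subclusters under 100 CPM of Pou4f1 were left out of the LHb-like class, as was a subcluster led by GABAergic markers (28 foot shock and 23 control cells). Subclusters with at least 2 glial markers among their leading genes were to be called mixed, but no subcluster met this rule. The cells called mixed (57 and 8) were a whole cluster of the first clustering, which held MHb markers and was led by genes such as Gja1, an astrocyte marker. The limits on Pou4f1 and on glial markers were set after values were seen.

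Levels are summed UMIs per 1000000. Their intervals are exact Poisson, those of shares Clopper-Pearson and those of ratios conditional binomial, all at 95%, and they cover counting error only. With 1 library per group no test was run. A gene entered a comparison with 20 UMIs in all, at the folds of 2 between classes and 1.5 between libraries. A 0 was set to 3 UMIs for bounds. Named were the members, pathway genes past the fold with Chrm5, Bche, Prima1 and Slc10a4, leading genes of subclusters, the 5 genes nearest in pattern to each member, and markers. A leading gene of L8 is not reported here. Members and lists were chosen with earlier results of these data known. Interval coverage was checked only on simulated Poisson sums, which leave out the uneven spread of UMIs over cells, so coverage on these data was not tested. Alternatives included TMM scaling (edgeR 4.0.16).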

Additional observations from a re-analysis of the deposited data

Results flagged for a closer look

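Slc5a7 was above free RNA outside neurons, in a class that the comparisons between neuron classes do not use. Its level in committed oligodendrocyte precursor-like cells was 179 CPM in the foot shock library and 158 CPM in the control library, against free RNA of 66.1 and 54.1 CPM and mature oligodendrocyte-like cells at 10.7 and 4.18 CPM.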

How the results depend on the processing

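Each log2 ratio of the members was recomputed under 12 to 14 of the 18 alternative settings. Each shift was compared with the mean distance, on the log2 scale, from the main value to the 2 ends of its counting interval. Of the 306 recomputed values, 277 moved by less than this and 29 moved further. As the intervals are uneven, this is not the same as lying inside them. The sign changed in 8 of the 306, and 2 of these were ratios past the fold in question. The counts of members at least 2 times higher in MHb-like or LHb-like neurons stayed within 1.5 times under every alternative run, but the 3 higher in LHb-like neurons became 2, without Chrm3, with at least 2000 UMIs per cell. The ratio of Chrm3 in MHb-like over LHb-like neurons was 0.0268 in the foot shock library on the log2 scale with that minimum, where L1 and nearly all of L4 fell outside the LHb-like class. The ratio of Slc5a7 between libraries in LHb-like neurons was -0.0731 on the log2 scale with the marker gate per cell, and the cause was not tested. The count of members past 1.5-fold between libraries in MHb-like neurons was 1 (Chrm1) with the mean of each cell's own CPM, against 0. In LHb-like neurons it was 1 with at most 10% mitochondrial UMIs (Chrm3), at resolution 2.0 (Slc5a7), with the mean of each cell's CPM (Chrm3) and with reweighted subclusters (Slc5a7), 0 with the marker gate and 4 with at least 1 UMI per gene, against 2. With at least 1 UMI per gene, 13.7% of genes were higher and 13.2% lower in MHb-like neurons, and 11.6% higher and 15.4% lower in LHb-like neurons, and 7.26% were higher in MHb-like than in LHb-like neurons. With at least 50 UMIs the shares between libraries were 1.62% and 2.74%, and 1.96% and 3.62%. TMM scaling shifted ratios of MHb-like over LHb-like neurons by 0.15 and 0.16 on the log2 scale. Leaving out the 32 barcodes found in both libraries was chosen after seeing the data. No paired analysis was possible because each group had 1 library. Depth limits the subcluster levels that rest on fewer than 20 UMIs.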
